A study of Mus musculus with 6 samples.

Results

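Cathepsins are proteases of endosomes and lysosomes, and legumain is an endolysosomal protease that cuts after asparagine. The genes described here, Ctsa, Ctsb, Ctsc, Ctsd, Ctse, Ctsh, Ctsl, Ctss, Ctsz and Lgmn, were taken by symbol and not by their signals. They are 10 of 18193 gene symbols on the array. Every probe set annotated to 1 of them alone was a member, which gave 22 of the 45037 probe sets that are no controls. Of these, 5 belonged to Ctsb, 3 each to Ctsc and Ctsz, 2 each to Ctsa, Ctse, Ctsh and Ctsl, and 1 each to Ctsd, Ctss and Lgmn.

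Expression was measured in 32D cells, an interleukin-3 dependent mouse line that arose from C3H/HeJ bone marrow infected with Friend leukaemia virus. The 3 Nup98::Nsd1 samples were transduced with the fusion gene, which joins the nuclear pore protein Nup98 to the histone methyltransferase Nsd1 and is found in acute myeloid leukaemia. The 3 mock samples were mock-transduced and carry the vector name MSCVpuro in their labels. RNA of each sample was read on its own Affymetrix array of the type Mouse430_2, which measures a transcript with a set of short probes, the probe set. No label says whether the transduced cells were clones or mixed populations, or whether the samples were separate cultures, so the p-values measure the spread between these samples, which may be technical.

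Cathepsins are made as inactive proenzymes, are carried to endosomes and lysosomes and become active at acid pH. By the residue that cuts the peptide bond, cathepsins D and E are aspartic proteases, cathepsin A is a serine carboxypeptidase, and cathepsins B, C, H, L, S and Z are cysteine proteases. In myeloid cells they degrade engulfed proteins, trim the invariant chain of MHC class II, and activate other proteases, as cathepsin C does for the serine proteases of granules.

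The arrays had 47.6% to 48.2% of probe sets called Present in Nup98::Nsd1 samples and 45.1% to 45.9% in mock samples. Log2 signals of tested probe sets correlated at 0.989 to 0.992 within groups and at 0.929 to 0.936 between them. The 3' to 5' signal ratio of the Actb control, a measure of RNA and labelling quality, was 1.45 to 1.5 on Nup98::Nsd1 arrays and 1.15 to 1.20 on mock arrays. That of Gapdh was 0.799 to 0.843 on Nup98::Nsd1 arrays and 0.742 to 0.770 on mock arrays. Both ratios moved with the groups, and their part in the differences given here was not tested. The 2 Nup98 probe sets had log2 fold changes, Nup98::Nsd1 over mock, of 0.47 and 0.52 with signals as deposited, and the 4 Nsd1 probe sets were called Present on no array. Of 9 progenitor markers measured, 7 were Present on all arrays (Mpo, Myb, Ptprc, Csf2rb, Il3ra, Spi1 and Ms4a3), and Kit and Cd34 were Present on none.

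Between Nup98::Nsd1 and mock cells the cathepsin genes did not move as a block. Ctss, the gene of an elastin-cleaving cysteine protease that also trims the invariant chain, was Present on all Nup98::Nsd1 arrays and on no mock array, at mean signals of 325 ± 32.6 in Nup98::Nsd1 cells and 10.8 ± 2.00 in mock cells (SD, n = 3 each). Ctsd, the main lysosomal aspartic protease gene, was 1.98-fold higher and Ctsa, the serine carboxypeptidase gene, 1.66-fold higher. Ctsb, the gene of the cysteine protease cathepsin B, was lower at 3 of its 4 tested probe sets, by up to 1.90-fold. Ctsc, Ctse and Ctsz had changes near the middle of all probe sets or probe sets that disagreed, and Ctsh and Ctsl were not detected on most arrays. In bulk RNA a change in the number of cells of a type and a change in RNA per cell cannot be told apart.

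Testing required a Present call on every array of either group. Of the 22 probe sets, 15 passed, covering 7 genes, and Ctsh, Ctsl and Lgmn had no tested probe set. Of these 15, 13 were Present on all 6 arrays. The other 2 passed through the group where they were brighter: the Ctss probe set through the Nup98::Nsd1 arrays and 1417492_at of Ctsb through the mock arrays. At an adjusted p of 0.05 in limma, over 20494 probe sets, 6 of the 15 were called higher and 3 lower in Nup98::Nsd1 cells, while 42.3% of all tested probe sets were called higher and 27.6% lower. Of the 13 that were Present on all 6 arrays, 5 were called higher and 2 lower, against 40.9% and 30.2% of the 17905 such probe sets. Their median log2 fold change was 0.16, beside 0.10 for the 17905. The signals of the groups did not overlap for 12 of the 15, and for 73.2% of all tested probe sets. At 2-fold or more, 2 of the 15 were called higher, the Ctss probe set and 1437939_s_at of Ctsc, beside 12.8% of all. These counts over few probe sets are descriptions, and nothing particular to the cathepsins is read from them.

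**Figure D1:**
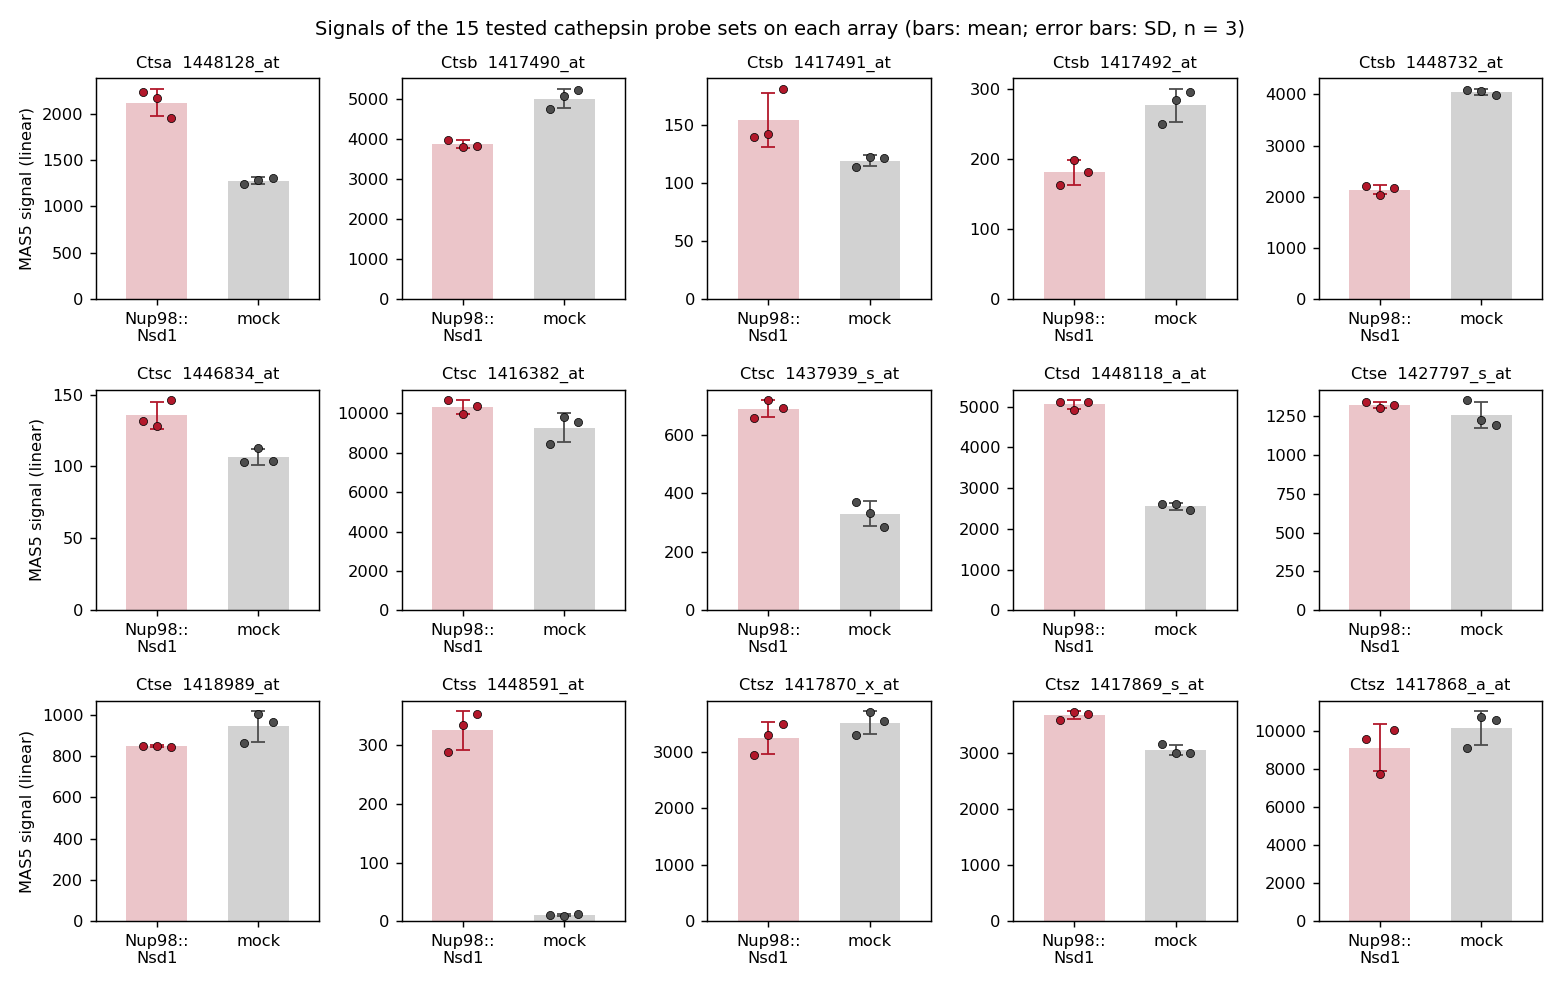
MAS5 signal (linear axis, arbitrary units) of the 15 tested probe sets on each array. Points are arrays, bars are group means and error bars are SD (n = 3 arrays per group); Nup98::Nsd1 arrays are red and on the left, mock arrays are grey. Ctss lies at 289 to 352 on Nup98::Nsd1 arrays and at 8.52 to 12.2 on mock arrays, Ctsd and Ctsa are higher on every Nup98::Nsd1 array, and 3 of the 4 Ctsb probe sets are lower.

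The middle of the tested probe sets lay at a log2 fold change of 0.15 and not at 0. Each log2 fold change below is that of the signals as deposited, with the value relative to this median beside it for the genes that changed most. Under 4 other scalings the same median was -0.0090 (quantile normalization), -0.018 (centring each array on its median), -0.045 (centring on the 75th percentile) and -0.21 (scaling to the 18 probe sets of control RNAs added at hybridization, called hybridization control scaling below). Probe sets differ in how brightly they bind, so levels were compared between arrays and not between probe sets.

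Among the aspartic proteases, Ctsd changed and Ctse did not pass the threshold. The Ctsd probe set read 5121, 4932 and 5116 on the Nup98::Nsd1 arrays, against 2614, 2602 and 2461 on the mock arrays. Every Nup98::Nsd1 array was thus well above every mock array, and the spread within groups was small beside the gap. The group means were 5056 ± 108 in Nup98::Nsd1 cells and 2559 ± 85.1 in mock cells (SD, n = 3 each). The log2 fold change was 0.98 with an SE of 0.043 (adjusted p = 5.06e-09), or 0.83 relative to the median, and under the 19 alternative settings it lay between 0.62 and 1.08 and kept its call.

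Ctse encodes an endosomal aspartic protease known from immune and epithelial cells. Its probe set 1427797_s_at read 1343, 1299.9 and 1323 on the Nup98::Nsd1 arrays, and 1353, 1227 and 1190.4 on the mock arrays. These ranges overlap, and the log2 fold change of 0.07 had a 95% interval of -0.06 to 0.21 (adjusted p = 0.283), while hybridization control scaling put it at -0.29 and called it lower (adjusted p = 0.00707). The probe set 1418989_at read 849.9, 849 and 843 on Nup98::Nsd1 arrays and 862, 1005 and 963 on mock arrays. Here every Nup98::Nsd1 value lay below the mock values, by 0.15 on the log2 scale, without a call (adjusted p = 0.0676). It was called lower with quantile normalization, with centring on the median or the 75th percentile, with hybridization control scaling, with array weights and without mock replicate 1.

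Ctsa encodes protective protein, the serine carboxypeptidase that holds beta-galactosidase and neuraminidase 1 in a complex and keeps them stable in the lysosome. The tested Ctsa probe set gave 2237, 2165 and 1953 on Nup98::Nsd1 arrays, against 1240.2, 1283 and 1308 on mock arrays. All Nup98::Nsd1 arrays lay above all mock arrays, with means of 2118 ± 148 in Nup98::Nsd1 cells and 1277 ± 34.2 in mock cells (SD, n = 3 each). The log2 fold change was 0.73 with an SE of 0.059 (adjusted p = 6.17e-07), or 0.58 relative to the median, and 0.36 to 0.79 over the alternatives, with the call kept. The other Ctsa probe set, 1458466_at, was Present on no array and was not tested.

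Of 3 tested genes listed as partners of cathepsin A, 2 were called higher and 0 lower, beside 42.9% and 29.5% of all tested genes. Glb1, the beta-galactosidase gene, averaged 1809.8 ± 53.0 in Nup98::Nsd1 cells and 1039 ± 55.6 in mock cells (log2 fold change 0.80, adjusted p = 1.97e-07). Neu1, the neuraminidase gene, averaged 785 ± 21.7 in Nup98::Nsd1 cells and 417 ± 42.1 in mock cells (log2 fold change 0.92, adjusted p = 2.37e-06). Galns, a sulfatase gene listed with them, stood at -0.16 without a call (adjusted p = 0.0783), and was called lower under each of the 4 other scalings, without the intensity trend and with probe sets averaged.

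The promoters of Ctsd and Ctsa are shown because both genes rose and both windows hold CACGTG, the core of the CLEAR element that TFEB, TFE3 and MITF bind in many lysosomal genes. Sequences are from RefSeq on GRCm38.p6 and run from 250 bases before to 50 bases after the annotated start, on the strand of the gene; capitals mark CACGTG. The Ctsd window is chr7:142387778-142388077, minus strand, and the Ctsa window, the downstream of 2 for this gene, is chr2:164833523-164833822, plus strand.
Ctsd: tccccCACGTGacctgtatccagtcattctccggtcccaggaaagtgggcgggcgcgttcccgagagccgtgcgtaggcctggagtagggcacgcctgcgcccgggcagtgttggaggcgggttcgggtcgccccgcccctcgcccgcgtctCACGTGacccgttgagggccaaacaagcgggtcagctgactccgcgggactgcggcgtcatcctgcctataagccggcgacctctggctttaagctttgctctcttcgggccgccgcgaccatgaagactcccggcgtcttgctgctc
Ctsa: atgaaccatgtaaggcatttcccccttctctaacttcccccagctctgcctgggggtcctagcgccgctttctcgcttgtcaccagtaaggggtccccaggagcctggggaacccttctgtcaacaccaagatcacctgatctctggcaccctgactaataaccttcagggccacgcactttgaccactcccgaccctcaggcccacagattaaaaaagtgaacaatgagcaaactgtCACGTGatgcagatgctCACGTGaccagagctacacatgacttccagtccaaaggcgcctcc
Counted from the annotated start, CACGTG begins at -245 and -98 in the Ctsd window and at -12 and 6 in the Ctsa window, overlapping no other motif searched. Of 32851 windows in the table, 7.15% hold CACGTG, which reads the same on both strands. RefSeq windows were found for 7 of the 10 genes, 9 windows in all, and 4 of the 9 held it: those of Ctsd, Ctsa, Lgmn and Ctsl, the last a gene that was Present on no array. The other motifs searched on both strands were GGGCGG of Sp1 (in 35.7% of all windows; Ctsc, Ctsd, Ctss, Ctsz and Lgmn), CCAAT of NF-Y (37.4%; Ctsz and Lgmn), TTGCNNAA of C/EBP factors (10.8%; Ctsl), TTCNNNGAA of STAT factors (8.30%; Ctsc) and TGANTCA of AP-1 (7.81%; none of the 9), besides the 2 given with Ctss. No window was found for Ctsb, Ctse and Ctsh. A match is a description of letters and not of binding.

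Among the cysteine endopeptidases, Ctss had the largest difference of the family. Its probe set read 289, 334 and 352 on Nup98::Nsd1 arrays, each called Present, against 11.7, 8.52 and 12.2 on mock arrays, each called Absent. The lowest Nup98::Nsd1 signal was far above the highest mock signal. The group means were 325 ± 32.6 in Nup98::Nsd1 cells and 10.8 ± 2.00 in mock cells (SD, n = 3 each). The probe set entered the test through the Nup98::Nsd1 arrays alone, and its mock signals were not above background, so the size of the fold is not settled. The fitted log2 fold change was 4.92 (SE 0.26, adjusted p = 1.99e-08) with signals as deposited. With 64 added to every signal it was 2.38, still called (adjusted p = 2.69e-09).

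The Ctss promoter is shown because the gene was Present on every Nup98::Nsd1 array and on no mock array, and its window, chr3:95526536-95526835 on the plus strand of GRCm38.p6, holds letters of 2 myeloid factor families. Capitals mark GAAANNGA, a core of sites for interferon regulatory factors, and GAGGAAG, a core for the ETS factor PU.1, here read from the opposite strand.
Ctss: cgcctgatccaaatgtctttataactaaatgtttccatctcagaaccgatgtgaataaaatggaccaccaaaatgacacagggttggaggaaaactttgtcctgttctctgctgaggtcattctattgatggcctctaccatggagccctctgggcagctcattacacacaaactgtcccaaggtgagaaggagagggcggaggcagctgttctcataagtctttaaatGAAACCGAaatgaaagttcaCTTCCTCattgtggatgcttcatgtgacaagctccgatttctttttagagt
GAAANNGA begins at -21 and the PU.1 letters at -1, with no overlap between them. Of all 32851 windows, 21.0% hold GAAANNGA and 13.6% hold GAGGAAG on either strand. Of the 9 windows of these genes, GAAANNGA is in those of Ctss and Lgmn, and GAGGAAG in those of Ctss and Ctsc. GAAANNGA was added to the search after the sequence was read.

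Cathepsin S is known from macrophages, dendritic cells and B cells, so markers of these cells were read beside it. Of 9 macrophage markers, 3 were Present on all arrays: Csf1r at a log2 fold change of 1.21, Cd68 at -0.30, and Adgre1 at 0.22, which turned to -0.15 with hybridization control scaling. The summed signal of the 9 was 4374 to 4540.3 on Nup98::Nsd1 arrays and 3885 to 4137 on mock arrays, and Cd14, Marco, Cd5l and C1qa were Present on no array. All 6 dendritic cell markers measured, Itgax, Zbtb46 and Xcr1 among them, were Present on no array, with sums of 212 to 299.8 on Nup98::Nsd1 arrays and 122 to 176 on mock arrays. Of 4 B cell markers, Cd22 was Present on all arrays without a call and Cd79a and Pax5 were Present on none; the sums were 198 to 316 on Nup98::Nsd1 arrays and 128 to 233 on mock arrays. The part of the macrophage markers in the Ctss difference was not tested.

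The genes most like Ctss were found by the distance between log2 signals on the 6 arrays, each centred on its mock mean. Of 9641 genes, the nearest were Avil (distance 1.12), Calcrl (1.46) and Slc39a8 (1.47). Avil read 1722, 1749 and 1618 on Nup98::Nsd1 arrays, against 64.3, 89.8 and 84.0 on mock arrays. Calcrl read 95.1, 94.6 and 73.0 on Nup98::Nsd1 arrays, against 1.24, 2.65 and 3.88 on mock arrays. For Slc39a8 the signals were 1118, 859 and 971 on Nup98::Nsd1 arrays, against 62.4, 56.4 and 35.4 on mock arrays. Like Ctss, Avil and Calcrl were Present on no mock array, and Slc39a8 was Present on 2. The distances thus rest largely on mock signals not above background. With 2 groups of 3 arrays this likeness rests on the size of 1 difference.

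Ctsl, the gene of the broadly expressed endopeptidase cathepsin L, was Present on no array at either probe set. The probe set 1451310_a_at read 7.46, 29.5 and 33.3 on Nup98::Nsd1 arrays and 15.8, 32.1 and 42.2 on mock arrays. The probe set 1457724_at read 17.6, 23.2 and 42.9 on Nup98::Nsd1 arrays and 28.8, 9.52 and 8.60 on mock arrays. Both pairs of ranges overlap, and no difference was detectable at these signals.

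Ctsb was the member that was lower. Cathepsin B is a lysosomal cysteine protease that acts both within proteins and from their carboxyl end. The brightest Ctsb probe set, 1417490_at, read 3979, 3799.6 and 3827 on Nup98::Nsd1 arrays, against 4738, 5063 and 5209 on mock arrays. All 3 Nup98::Nsd1 arrays were below all 3 mock arrays, at 3869 ± 96.5 in Nup98::Nsd1 cells and 5003 ± 241 in mock cells (SD, n = 3 each; log2 fold change -0.37, SE 0.046, adjusted p = 2.21e-05). The second, 1448732_at, read 2207, 2032 and 2175 on Nup98::Nsd1 arrays, against 4092, 4072 and 3989.5 on mock arrays. Its groups were further apart, with a log2 fold change of -0.92 and an SE of 0.046 (adjusted p = 1.22e-08). Relative to the median of tested probe sets the values were -0.52 and -1.07.

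The dim Ctsb probe sets differed from each other. The probe set 1417492_at read 164, 199.6 and 181 on Nup98::Nsd1 arrays, where it was Present on 1 of 3, and 251, 285 and 296 on mock arrays, a log2 fold change of -0.61 (adjusted p = 0.00139). That fold rests on signals mostly not above background in Nup98::Nsd1 cells. The probe set 1417491_at, Present on all arrays, read 139, 143 and 181 on Nup98::Nsd1 arrays and 114, 122 and 121 on mock arrays. Its values lay the other way, at a log2 fold change of 0.36, without a call (adjusted p = 0.0727); without the intensity trend in the test it was called higher (adjusted p = 0.0289), and quantile normalization put it at -0.076. A Ctsb probe set of lower signal still, 1444987_at, was Present on no array. Under the 17 to 19 alternatives that tested them, the 3 lower probe sets kept their call, with ranges of -0.74 to -0.23, -1.29 to -0.84 and -0.98 to -0.47 for 1417490_at, 1448732_at and 1417492_at.

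Ratios within an array do not change when all its signals are multiplied by 1 factor, as in centring or hybridization control scaling; quantile normalization can change them. The log2 ratio of the Ctsd signal to the brightest Ctsb signal was 0.36, 0.38 and 0.42 on Nup98::Nsd1 arrays and -0.86, -0.96 and -1.08 on mock arrays. The groups stood 1.35 apart on the log2 scale, against a spread within groups of 0.03 and 0.11 (SD, Nup98::Nsd1 and mock). For Ctsa over Ctsb the groups stood 1.10 apart, and for Ctsd over the brighter Ctse probe set 0.91. The sign of such a ratio carries no ratio of RNA amounts, since the probe sets bind differently. A difference between groups shows unequal change of the 2 probe sets, which need not be unequal change of the 2 genes. The 2 bright probe sets of Ctsb alone also changed unequally. Their log2 ratio was 0.85, 0.90 and 0.82 on Nup98::Nsd1 arrays and 0.21, 0.31 and 0.38 on mock arrays, with the groups 0.55 apart.

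**Figure D2:**
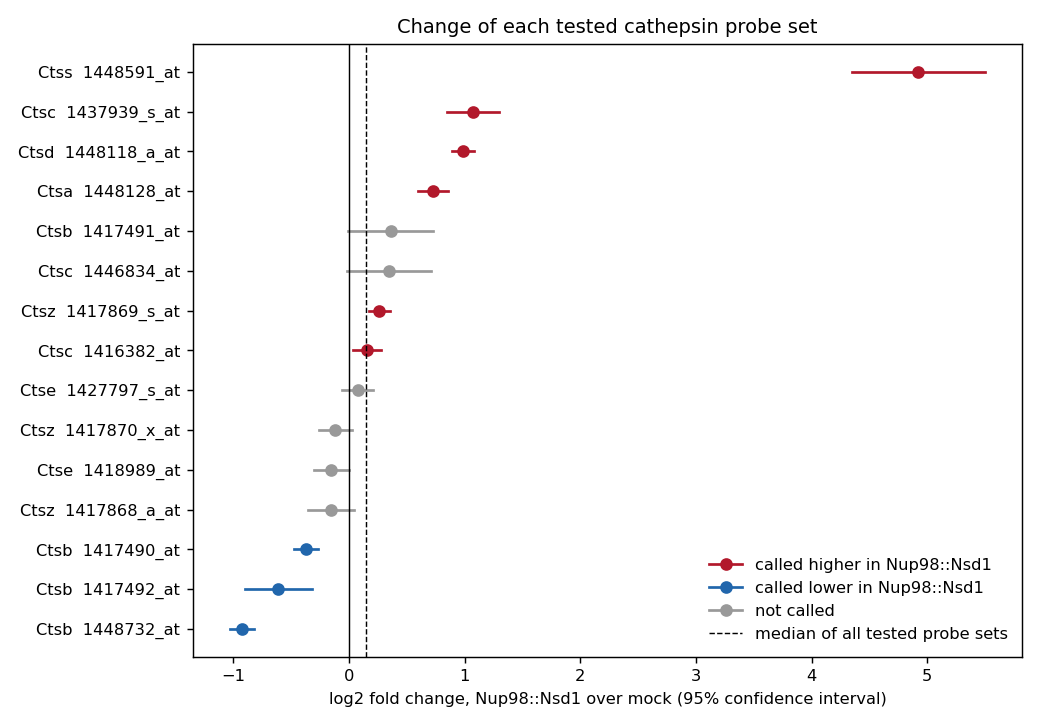
Log2 fold change of each tested probe set, Nup98::Nsd1 over mock, with the 95% confidence interval from limma; red is called higher, blue called lower and grey not called. The dashed line is the median of all tested probe sets at 0.15. Ctss stands alone at 4.92, the 3 called Ctsb probe sets lie at -0.37 to -0.92, and most others lie within 0.4 of 0.

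The exopeptidase genes Ctsc, Ctsz and Ctsh gave smaller or divided results. Cathepsin C removes dipeptides from the amino end of proteins and so activates the serine proteases of myeloid granules. Its brightest probe set, 1416382_at, read 10663, 9956 and 10357 on Nup98::Nsd1 arrays and 8436, 9819.8 and 9575 on mock arrays. The lowest Nup98::Nsd1 value was just above the highest mock value. The log2 fold change of 0.16 (adjusted p = 0.0267) was 0.0056 relative to the median, turned to -0.039 (75th percentile), -0.012 (median) and -0.21 (hybridization controls) under those scalings, and lost its call without mock replicate 1 (adjusted p = 0.0742) and without Nup98::Nsd1 replicates 1 or 3 (adjusted p = 0.103 and 0.064). The dimmer 1437939_s_at read 659, 718 and 691 on Nup98::Nsd1 arrays, against 371, 333 and 285 on mock arrays. It rose 2.10-fold (log2 fold change 1.07, SE 0.103, adjusted p = 2.44e-06), with a range of 0.71 to 1.16 over the alternatives. The dimmest, 1446834_at, read 132, 128 and 146 on Nup98::Nsd1 arrays and 103, 113 and 104 on mock arrays, without a call (log2 fold change 0.34, adjusted p = 0.0838); without the intensity trend it was called higher (adjusted p = 0.00716), and quantile normalization put it at -0.097. The log2 ratio of 1437939_s_at to 1416382_at was 0.91 higher in Nup98::Nsd1 cells than in mock cells, so the Ctsc probe sets measured unequal changes.

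Ctsz encodes a carboxypeptidase with an integrin-binding propeptide, also called cathepsin X. Of its 3 probe sets, 1417869_s_at read 3597, 3731 and 3699 on Nup98::Nsd1 arrays and 3165, 3007 and 3009.6 on mock arrays. It was called higher at 0.26 on the log2 scale (adjusted p = 0.00017), lost the call with median and 75th percentile centring (0.10 and 0.07), and stood at -0.10 with hybridization control scaling. The brightest, 1417868_a_at, read 9620.4, 7774 and 10056 on Nup98::Nsd1 arrays and 9128, 10776 and 10577 on mock arrays. These ranges overlap (log2 fold change -0.16, adjusted p = 0.139), as do those of 1417870_x_at, at 2939.7, 3302 and 3502 on Nup98::Nsd1 arrays and 3305, 3707 and 3548 on mock arrays (log2 fold change -0.12, adjusted p = 0.127). Both were called lower with either centring and with hybridization control scaling, the first also without mock replicate 1 and the other also without Nup98::Nsd1 replicate 3 and with array weights. Neither a rise nor a fall of Ctsz as a gene can be given from these probe sets.

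Ctsh encodes cathepsin H, an aminopeptidase. The probe set 1443814_x_at read 34.2, 47.3 and 7.77 on Nup98::Nsd1 arrays, Present on the second of these alone, and 12.2, 21.9 and 1.37 on mock arrays. The probe set 1418365_at, Present on no array, read 31.7, 8.06 and 39.6 on Nup98::Nsd1 arrays and 11.6, 20.7 and 38.6 on mock arrays. Ranges overlapped for both, and neither was tested.

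Lgmn was the one untested gene whose groups did not overlap. Legumain activates some cathepsins and cleaves endosomal antigens and receptors. Its probe set read 44.3, 73.8 and 53.2 on Nup98::Nsd1 arrays, against 6.01, 14.8 and 3.27 on mock arrays. It was called Present on the Nup98::Nsd1 arrays that read 73.8 and 53.2, with detection p-values of 0.0186 and 0.00732, and Absent on the other (0.171) and on the mock arrays (0.634, 0.219 and 0.726). Every Nup98::Nsd1 signal was above every mock signal, but no fold is given, since signals on both sides were called Absent. The gene did not pass the rule for testing; with no filter on detection it was called higher (adjusted p = 0.00636). The lowest signals called Present on an array were 8.06 to 15.4, below the 44.3 called Absent here, so no 1 signal marks the limit of detection for all probe sets.

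**Figure D3:**
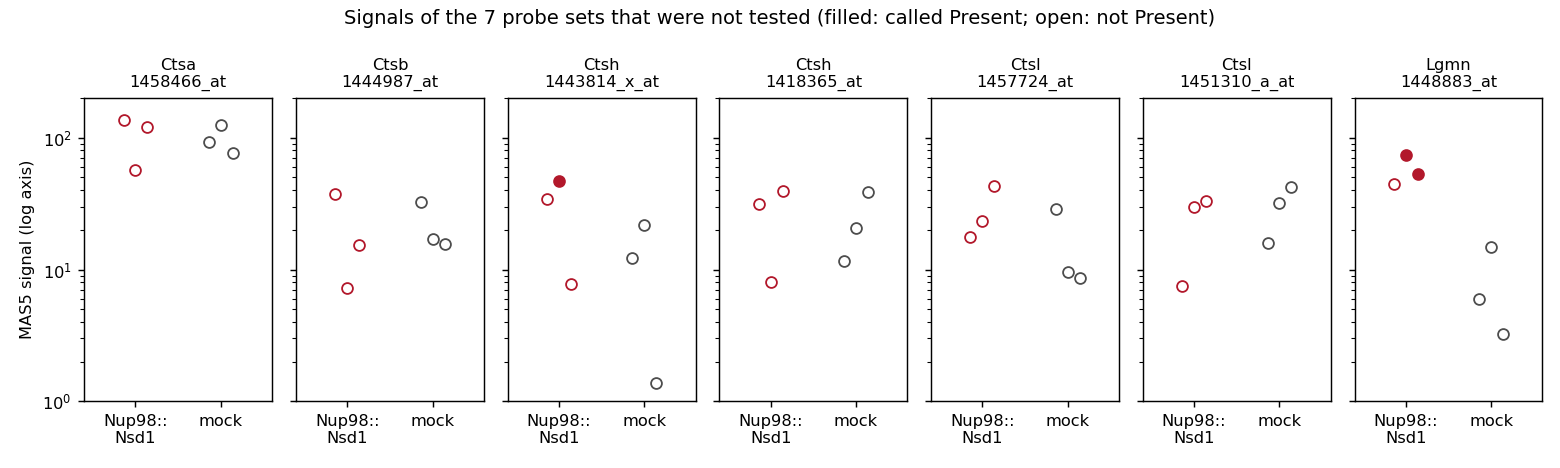
MAS5 signal (log axis, arbitrary units) of the 7 probe sets that were not tested, on each array; filled points were called Present and open points were not. Nup98::Nsd1 arrays are on the left of each panel. The groups overlap in every panel but that of Lgmn, where Nup98::Nsd1 arrays lie at 44.3 to 73.8 and mock arrays at 3.27 to 14.8.

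The scaling of the arrays bore on the weaker changes. The signals as deposited gave 6 probe sets called higher and 3 lower; the counts were 6 and 4 after quantile normalization, 4 and 6 with median or 75th percentile centring, and 4 and 8 with hybridization control scaling. The probe sets of Ctss, Ctsd, Ctsa and 1437939_s_at of Ctsc were higher, and 1417490_at, 1448732_at and 1417492_at of Ctsb lower, under each of these. Over all 20494 tested probe sets, 8678 were called higher and 5657 lower as deposited. With quantile normalization they were 6830 and 6919, and with median centring 6646 and 7477. Centring on the 75th percentile gave 6350 and 7813, and hybridization control scaling 4573 and 9586. Nothing particular to the cathepsins is read from the shift in their counts.

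**Figure D4:**
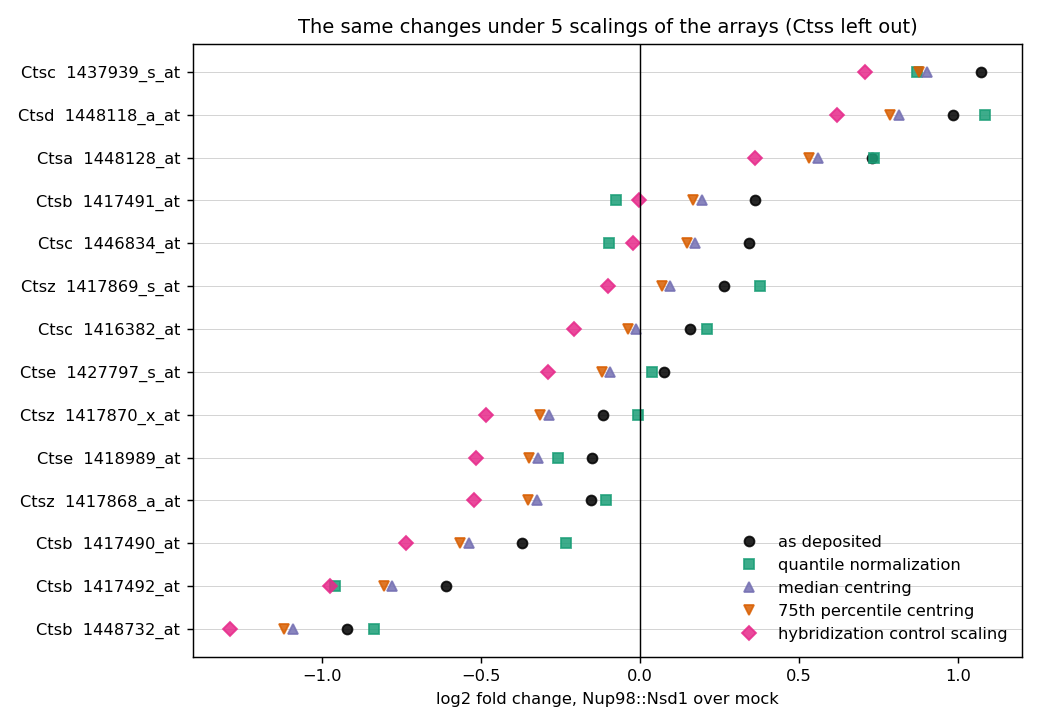
Log2 fold change, Nup98::Nsd1 over mock, of 14 tested probe sets (Ctss left out for its size) with signals as deposited and under 4 other scalings. Ctsd, Ctsa and 1437939_s_at of Ctsc stay right of 0 and the 3 called Ctsb probe sets stay left of it, while the other probe sets cross 0 or, as 2 of Ctsz and 1 of Ctse, lie left of it without a call as deposited.

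Genes that work with the cathepsins were read from 9 lists, with a gene taken at its brightest tested probe set. These lists were chosen with earlier results of these data known, so their counts are descriptions. Of all 9641 tested genes, 42.9% were called higher and 29.5% lower, with a median log2 fold change of 0.12.

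Of the inhibitors, 3 of 7 cystatin and stefin genes on the array were tested, 2 called higher and 1 lower. Cstb, the stefin that inhibits cathepsins in the cytosol, averaged 5918 ± 195 in Nup98::Nsd1 cells and 3628 ± 8.19 in mock cells (log2 fold change 0.71, adjusted p = 3.72e-08). Cst7, the leukocystatin that reaches lysosomes and inhibits cathepsin C there, averaged 328 ± 46.6 in Nup98::Nsd1 cells and 651 ± 40.7 in mock cells (log2 fold change -1.0, adjusted p = 8.40e-06). Cst3, secreted cystatin C, was called at 0.10 (adjusted p = 0.041) and turned to -0.098 (75th percentile), -0.071 (median) and -0.27 (hybridization controls) under those scalings. Its call was kept without mock replicate 3 and lost without any other array, at an adjusted p of 0.056 to 0.132.

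Of other cathepsins on the array, 1 of 12 was tested, and Ctso was 0.71 higher on the log2 scale (adjusted p = 0.00017). All 5 tested lysosomal peptidases were called higher, with a median log2 fold change of 0.48. Scpep1, a serine carboxypeptidase related to cathepsin A, averaged 1349.5 ± 234 in Nup98::Nsd1 cells and 365 ± 74.9 in mock cells (log2 fold change 1.89, adjusted p = 5.18e-07). Dpp7, a dipeptidyl peptidase, averaged 1068 ± 27.9 in Nup98::Nsd1 cells and 448 ± 0.193 in mock cells (1.25, adjusted p = 1.58e-08). Tpp1, a tripeptidyl peptidase, stood at 0.46, without a call under hybridization control scaling (0.10). Napsa, an aspartic protease, stood at 0.19, and at -0.010 (75th percentile) and -0.18 (hybridization controls) under those scalings. With hybridization control scaling 2 of the 5 were called higher and 1 lower.

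Of 9 sorting genes, 4 were called higher and 4 lower, and 2 and 5 with hybridization control scaling. Gnptab, the catalytic subunit that makes the mannose 6-phosphate tag on cathepsins, averaged 1590.3 ± 91.8 in Nup98::Nsd1 cells and 2770.3 ± 156 in mock cells (log2 fold change -0.80, adjusted p = 2.52e-07). The genes of both receptors for that tag were lower as well, with log2 fold changes of -1.45 for Igf2r (adjusted p = 2.93e-05) and -0.35 for M6pr (adjusted p = 8.57e-06). Igf2r was Present on 1 of the 3 Nup98::Nsd1 arrays and on all mock arrays, so its fold rests on signals mostly not above background in Nup98::Nsd1 cells. Sort1, the gene of sortilin, a receptor that carries some cathepsins without that tag, was called higher (adjusted p = 2.25e-08). It averaged 808 ± 50.1 in Nup98::Nsd1 cells and 132 ± 25.7 in mock cells, where it was Present on no array. This Sort1 probe set entered the test through the Nup98::Nsd1 arrays alone, so the size of its fold is not settled. Scarb2, the lysosomal receptor for glucocerebrosidase, rose by 0.77 (adjusted p = 7.49e-06). Psap, the saposin precursor, stood at 0.39 (adjusted p = 3.48e-06), and at 0.03 without a call under hybridization control scaling. The other tested Psap probe set was not called as deposited.

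Of the known targets, 6 of 9 invariant chain and MHC class II genes on the array were tested. Of these 6, 2 were called higher, 0 lower and 4 not called. The class II genes H2-Aa, H2-Ab1 and H2-Eb1 had no tested probe set. Cd74, the invariant chain that cathepsin S trims, averaged 1285 ± 87.3 in Nup98::Nsd1 cells and 176 ± 5.29 in mock cells (log2 fold change 2.87, adjusted p = 2.89e-10). H2-Oa, a chain of the peptide-loading modulator DO, averaged 1011 ± 54.4 in Nup98::Nsd1 cells and 313 ± 9.73 in mock cells (1.69, adjusted p = 5.96e-09). Of the granule proteases that cathepsin C activates, 4 of 10 were tested, with 1 called higher and 2 lower. Prtn3, proteinase 3, averaged 4878 ± 61.0 in Nup98::Nsd1 cells and 9202 ± 346 in mock cells (-0.92, adjusted p = 5.59e-09). Elane, neutrophil elastase, was called lower (adjusted p = 0.000284). It averaged 76.5 ± 18.8 in Nup98::Nsd1 cells, where it was Present on no array, and 186 ± 33.4 in mock cells. Its probe set entered the test through the mock arrays alone. Mcpt8, a basophil protease, stood at 0.27 (adjusted p = 0.00538), and at -0.097 with hybridization control scaling. The summed signal of the 9 progenitor markers, of which Mpo and Ms4a3 also mark granule-forming cells, was 35793 to 35998 on Nup98::Nsd1 arrays and 55147 to 60264 on mock arrays. With signals as deposited the 7 tested among them split, with Ptprc, Csf2rb, Il3ra and Spi1 called higher and Mpo, Ms4a3 and Myb lower. Csf2rb stood at 0.17 at its brightest probe set, and its other tested probe set was called lower. The sum of 6 mast cell and basophil markers was 4378 to 4454 on Nup98::Nsd1 arrays and 9160.0 to 9523 on mock arrays. Of the 4 tested, Fcer1a and Ms4a2 were called lower and Cpa3 and Mcpt8 higher as deposited. Ms4a2 was Present on no Nup98::Nsd1 array and entered the test through the mock arrays alone. Fcer1a, at 1349 ± 63.9 in Nup98::Nsd1 cells and 7353 ± 154 in mock cells, made most of the difference in the sum. The 6 mature neutrophil markers summed to 5676 to 6090.1 on Nup98::Nsd1 arrays and 6224 to 6449 on mock arrays, with Ltf, Camp and Mmp8 Present on none. The 5 eosinophil markers summed to 667 to 720 on Nup98::Nsd1 arrays and 2431 to 2596 on mock arrays. Of these, 2 were tested, with 0 called higher and 2 lower: Epx at -2.22 and Siglecf at -1.18. The part of these cell types in the protease differences was not tested. Of 6 genes of endosomal Toll-like receptors and their transport, Unc93b1 alone was tested, without a call (0.10, adjusted p = 0.593).

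Of 12 tested transcription factors tied to lysosomal or myeloid protease genes, 9 were called higher and 0 lower, against 3 and 2 with hybridization control scaling. Among the factors named above with CACGTG, Mitf averaged 609 ± 58.1 in Nup98::Nsd1 cells and 177 ± 18.1 in mock cells (log2 fold change 1.78, adjusted p = 1.04e-07). Tfe3 stood at 0.54 as deposited (adjusted p = 4.16e-05) and was not called higher with hybridization control scaling. Tfeb had no tested probe set. The part of these factors in the Ctsd and Ctsa differences was not tested. Cebpa and Usf2 stood at 0.87 and 1.0, and Cebpb at 0.53, with Cebpb not called under hybridization control scaling (0.17). Without a call as deposited were Tfec (-0.09, adjusted p = 0.291), Myc (0.055, adjusted p = 0.275) and Irf8 (0.28, adjusted p = 0.234). Spi1 stood at 0.32 and Irf1 at 0.19 as deposited, and neither was called higher with hybridization control scaling. The part of Spi1, Irf8 and Irf1 in the Ctss difference was not tested.

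**Figure D5:**
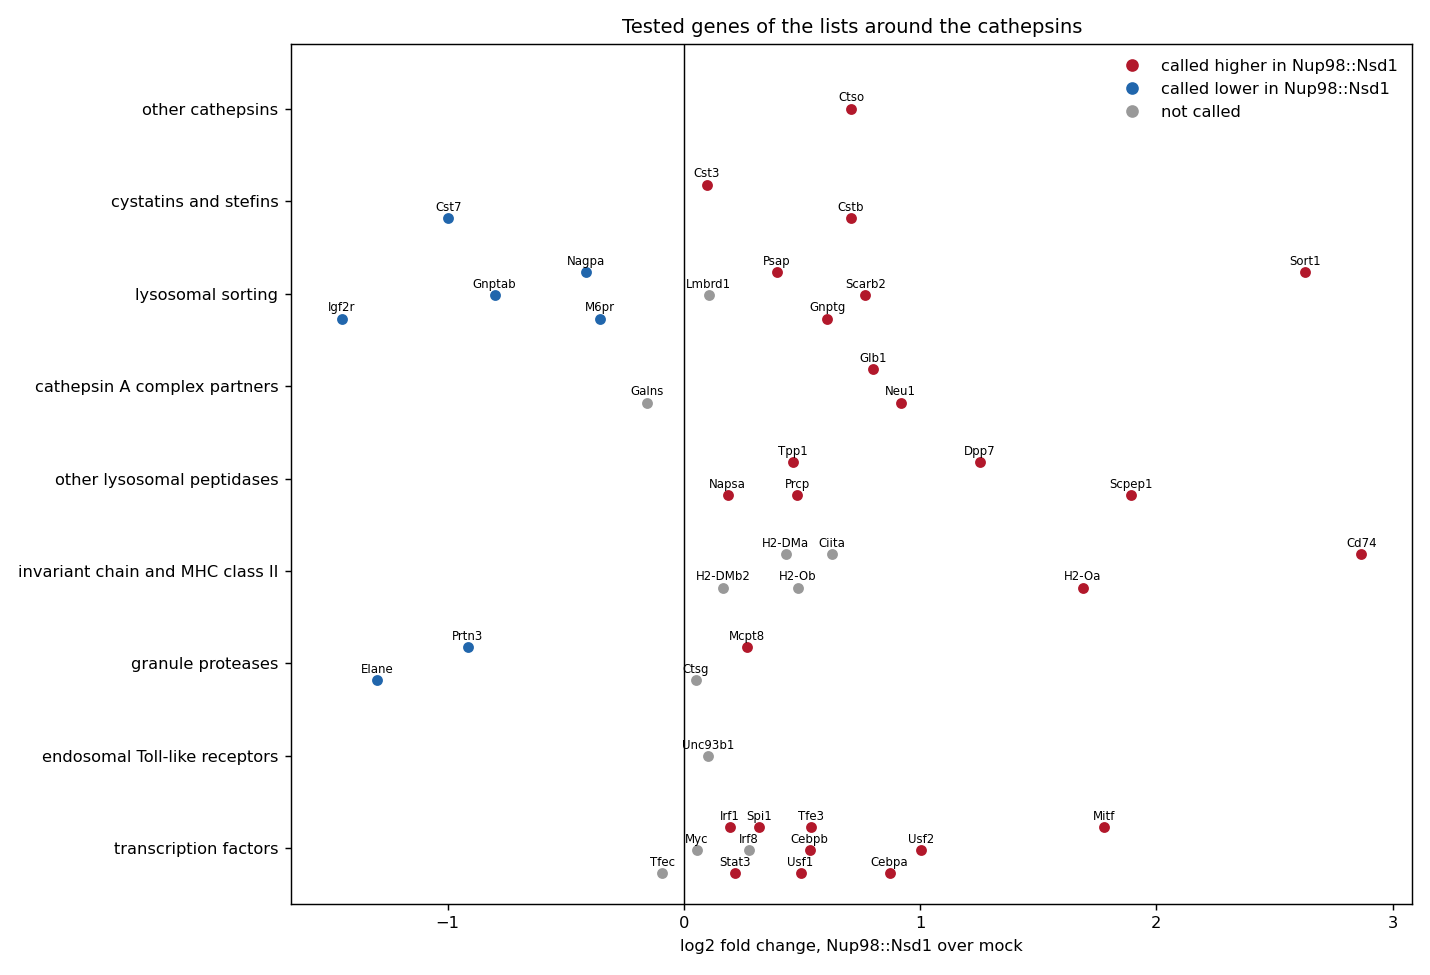
Log2 fold change (Nup98::Nsd1 over mock, signals as deposited) of each tested gene of the 9 lists, at its brightest tested probe set. Red is called higher, blue called lower and grey not called; vertical offsets within a list keep names apart. Cd74 at 2.87 and Sort1 at 2.63 lie furthest right and Igf2r at -1.45 furthest left. Sort1 was Present on no mock array, Elane on no Nup98::Nsd1 array and Igf2r on 1 of the 3 Nup98::Nsd1 arrays. The size of their folds is therefore not settled.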

How the data were processed

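RNA of 3 Nup98::Nsd1 and 3 mock samples was measured on 1 array each. The authors used MAS5, per the submitters' processing notes. Per the file headers, the deposited values are MAS5 intensities on a linear scale, each with the authors' detection p-value and call (Present, Marginal, Absent). The sources used here give neither the MAS5 version nor its scaling target. The series table, as deposited, held equal intensities to a relative difference of 5.0e-06.

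Probe sets were named from the platform annotation of 2016, with symbols updated through RefSeq. Signals under 1 were set to 1 and log2 values taken. Probe sets Present on all arrays of either group were tested with limma 3.58.1 in R 4.3.3 (lmFit, and eBayes with an intensity trend), with Benjamini-Hochberg adjustment over 20494 probe sets and a threshold of 0.05. Fold changes are Nup98::Nsd1 over mock. The fit was tested on simulated data. Of each list, up to 4 genes past the threshold with the smallest p were named, and the 3 genes nearest to the member with the largest change. Galns, Igf2r, M6pr, Unc93b1, Tfeb, Tfe3, Tfec, Myc, Irf8, Irf1, H2-Aa, H2-Ab1, H2-Eb1 and the markers were named after their values were seen. The 10 genes and the lists were chosen with earlier results of these data known. Alternatives were adding 16 or 64 to signals, no detection filter, Present on all 6 arrays, 4 other scalings, the series table, no intensity trend, array weights, a replicate block, averaging the probe sets of a gene, and leaving out each array. The number of arrays limits the precision.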

Additional observations from a re-analysis of the deposited data

How the results depend on the processing

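Of the 15 tested cathepsin probe sets, 7 kept their direction and their side of the threshold under every alternative that tested them: those of Ctss, Ctsd and Ctsa, 1437939_s_at of Ctsc and 3 of Ctsb. The number called lower was 6 with centring on the 75th percentile or the median, 8 with hybridization control scaling and 5 with array weights, against 3 as deposited. Leaving out single arrays gave 3 to 5 lower, the most without mock replicate 1, and 5 to 6 higher. Over all probe sets, hybridization control scaling gave 4573 higher and 9586 lower, against 8678 and 5657 as deposited, 6830 and 6919 after quantile normalization, 6646 and 7477 with centring on the median and 6350 and 7813 on the 75th percentile. Without single arrays 8089 to 8405 were higher and 5260 to 5453 lower. Of list genes, 26 were higher and 7 lower as deposited, 13 and 14 with hybridization control scaling, 19 and 11 with centring on the 75th percentile, and 24 to 27 and 7 without single arrays. Some log2 fold changes that were called as deposited or under the alternative changed sign. Examples are Ctsc 1416382_at (0.16 as deposited, -0.039 on the 75th percentile, -0.012 on the median, -0.21 on hybridization controls), Cst3 (0.098, then -0.098, -0.071 and -0.27 in that order) and Napsa (0.19, with -0.010 on the 75th percentile and -0.18 on hybridization controls). Further examples on hybridization controls are Ctse 1427797_s_at (-0.29), Ctsz 1417869_s_at (-0.10), Mcpt8 (-0.097) and Adgre1 (-0.15). Changes without a call also crossed 0, as those of Ctsb 1417491_at (-0.076) and Ctsc 1446834_at (-0.097) with quantile normalization. The cause was not tested.

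Equal replicate numbers in the groups mark no shared source in the labels, and deviations of equally numbered arrays correlated at -0.017, 0.021 and -0.011, with not every array closest to its own number. The fit with the replicate block called 8628 probe sets higher and 5629 lower, 6 and 3 of the cathepsin probe sets, and 25 and 7 list genes. Signals near the background limit what can be said of Ctsh, Ctsl and Lgmn.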
